A study of Mus musculus with 81 samples.

Results

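The 10 microglial genes described here are Trem2, its adaptors Tyrobp and Hcst, the related receptors Trem1 and Treml2, and the proximal signaling genes Syk, Plcg2, Vav1, Pik3ap1 and Inpp5d. They were chosen by name, as the rows of the deposited count tables whose symbol is one of these 10, and all 10 were found among the 25124 genes of each table. Microglia were sorted from the brains of adult male C57BL/6 mice on a regular diet (baseline) or on 0.2% cuprizone, a dietary copper chelator that causes loss of oligodendrocytes and demyelination, and polyadenylated RNA was sequenced in 81 libraries. Brains of several mice were pooled for each sort, and the labels do not say which pools are independent, so p-values measure the spread between these pools. Baseline cells were gated as CD44Low CD45Low CD11bLow, and cuprizone cells were further split by the surface proteins CD229 (gene Ly9), CD11c (gene Itgax) and, at 5 weeks, Clec7a.

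The 81 libraries fall into 28 groups of 2 to 4. WT and Trem2KO mice were compared at baseline and after 4 weeks of cuprizone, in CD229- CD11c- cells and CD229+ CD11c- cells, and WT mice also in CD229+ CD11c+ cells. Cx3cr1CreERT2/WT mice, called Cre here, carry a tamoxifen-inducible Cre recombinase in place of 1 Cx3cr1 allele, and every Mef2aKO and Egr2KO group carries it too (Cx3cr1CreERT2/WT::Mef2afl/fl and Cx3cr1CreERT2/WT::Egr2fl/fl). Cre and Mef2aKO mice were compared at baseline and after 5 weeks, in Clec7a- cells and in Clec7a+ cells without CD229, with CD229, and with both CD229 and CD11c. Mef2aKO microglia were also split by CD229 at baseline. Cre and Egr2KO mice were compared at baseline, after 6 weeks in the same 3 CD229 and CD11c gates as the WT mice, and after 5 weeks in the whole microglia population. The WT mice carry no Cre, so WT and Cre libraries were set against each other in no test.

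TREM2 is a lipid-sensing receptor of myeloid cells, and microglia are its main site of expression in the brain. It has no signaling motif of its own and passes its signal through DAP12, the product of Tyrobp, whose immunoreceptor tyrosine-based activation motif (ITAM) recruits the kinase SYK, and through DAP10, the product of Hcst, which recruits phosphoinositide 3-kinase (PI3K). SYK in turn acts on phospholipase C gamma 2 (Plcg2), the exchange factor VAV1 and the PI3K adaptor BCAP (Pik3ap1), while the lipid phosphatase SHIP1 (Inpp5d) removes the lipid that PI3K makes. TREM1 also pairs with DAP12 and is best known from neutrophils and monocytes, and TREML2 is a TREM-like receptor of myeloid and lymphoid cells.

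On GRCm38 the annotated starts and ends were chromosome 17, 48346401 to 48352276 for Trem2 and 48300038 to 48312534 for Treml2, with Trem1 at 48232739 to 48246924, all on the plus strand. Tyrobp (chromosome 7, 30413782 to 30417579, plus strand) and Hcst (30417712 to 30419854, minus strand) lie end to end, 132 bases apart, and share no annotated base. Syk lies at 52596882 to 52648792 of chromosome 13. The counts are per gene, so they do not say which exons were read. A RefSeq promoter window (GRCm38.p6) was matched by symbol for 8 of the 10 genes, all but Tyrobp and Treml2. The 250 bases before the start are shown for 4 genes that moved in different ways below: Trem2, Hcst and Trem1 rose along the CD229 gate of WT cells, and Syk fell. They are written 5′ to 3′ on the gene's strand, and capitals mark the ETS-type motif AGGAAGT, searched on both strands, since the ETS factor PU.1 is a main regulator of myeloid genes.
Trem2, chr17:48346151-48346400 (+): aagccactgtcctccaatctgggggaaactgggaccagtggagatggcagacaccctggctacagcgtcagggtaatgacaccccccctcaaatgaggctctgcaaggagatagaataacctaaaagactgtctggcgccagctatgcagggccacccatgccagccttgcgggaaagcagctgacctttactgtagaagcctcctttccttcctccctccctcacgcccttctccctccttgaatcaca
Hcst, chr7:30419855-30420104 (-): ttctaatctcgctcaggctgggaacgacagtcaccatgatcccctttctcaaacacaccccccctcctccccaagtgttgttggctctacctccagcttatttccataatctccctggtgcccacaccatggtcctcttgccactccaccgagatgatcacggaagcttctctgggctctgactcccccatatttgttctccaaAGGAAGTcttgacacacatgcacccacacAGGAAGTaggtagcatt
Trem1, chr17:48232489-48232738 (+): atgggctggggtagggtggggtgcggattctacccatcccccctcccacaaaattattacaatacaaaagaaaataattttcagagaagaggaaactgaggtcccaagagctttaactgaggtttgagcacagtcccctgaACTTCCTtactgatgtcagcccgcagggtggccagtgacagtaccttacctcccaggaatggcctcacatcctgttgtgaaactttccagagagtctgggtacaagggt
Syk, chr13:52596632-52596881 (+): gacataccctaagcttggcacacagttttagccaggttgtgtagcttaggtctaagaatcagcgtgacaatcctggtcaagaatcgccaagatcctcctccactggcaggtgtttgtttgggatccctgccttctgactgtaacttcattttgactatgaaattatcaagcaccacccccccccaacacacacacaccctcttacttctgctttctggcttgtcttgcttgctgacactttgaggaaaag
The motif lay in the windows of Hcst, at 46 and 17 bases before the start, of Trem1, at 109 bases on the opposite strand, and of Inpp5d and Vav1, at 19 and 10 bases. That is 4 of 8 member windows, and 7.69% of 32851 promoter windows of the same length held it. The MEF2-type motif (CTA and TAG with 4 bases between) and the EGR-type motif GCGNGGGCG were in 0 of the 8 windows, against 3.2% and 4.7% of all windows. The E-box CACGTG was in 2, those of Plcg2 and Pik3ap1, against 6.02%. These are matches of letters only, and the windows of Trem2 and Syk held none of the 4 motifs.

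Total counts per library ran from 4387075 to 13972985, with a median of 9549766. The 10 microglial markers checked were all present in every group, summing to between 5653 and 15070 CPM (counts scaled to the library total, with TMM factors over all 81 libraries). Replicate 2 of the WT baseline libraries stood apart in neutrophil markers, which summed to 24.3 CPM there. It also held 219 reads of Clu, a lipoprotein gene, where the other WT baseline libraries held between 2 and 95. Those 219 reads are 19.0 CPM. The whole-population libraries at 5 weeks read 27.5 and 40.6 CPM of Clu in Cre and 13.8 and 23.7 CPM in Egr2KO mice. Results that changed without WT baseline replicate 2 are given beside the result. The neutrophil markers also reached 8.89 CPM in Trem2KO CD229- cells and 4.09 CPM in Trem2KO CD229+ cells. The 7 markers of border macrophages (Mrc1, Pf4, Cd163, Lyve1, F13a1, Cbr2 and Folr2) were present at sums from 8.74 to 356 CPM over the libraries, and are given beside the steps they moved with. Their part in those results was not tested. Ly9, Itgax and Clec7a were higher in cells positive for their gate, for example Ly9 at 54.2 CPM on average in WT CD229- cells and 304 in CD229+ cells. At 5 weeks Ly9 also differed between gates that both lack CD229. It averaged 101 CPM in Cre Clec7a- and 39.9 CPM in Cre Clec7a+ CD229- cells, and 91.0 and 26.8 CPM in those of Mef2aKO mice. Bulk counts cannot tell fewer cells of a type from less RNA per cell.

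Per length, in TPM (scaled by transcript length and library total) as the authors deposited it, the receptor and its main adaptor were the most abundant members. Trem2 had a median of 581 TPM over the 81 libraries and Tyrobp 553 TPM. The signaling genes followed, with Inpp5d at 269.7, Pik3ap1 at 155, Vav1 at 124, Plcg2 at 108 and Syk at 100.0 TPM, then Hcst at 34.8 and Treml2 at 21.8 TPM. Trem1 was nearly absent, at a median of 0.18 TPM, with 0 reads in 21 of 81 libraries and at most 29 in 1 library.

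The members differed in how widely they varied over the groups. Treml2 spanned 6.17-fold between its lowest group mean, 20.9 CPM in Trem2KO baseline cells, and its highest, 129 CPM in Cre Clec7a+ CD229+ cells. Trem2 spanned 6.11-fold, a range set by the Trem2KO groups. Hcst spanned 4.07-fold, Tyrobp 2.35-fold and Syk 1.81-fold, while Inpp5d (1.56-fold), Pik3ap1 (1.40-fold), Plcg2 (1.29-fold) and Vav1 (1.25-fold) stayed within narrower limits. When the 28 groups were ordered by their mean, neighbouring groups overlapped in 24 of 27 steps for Treml2, 25 for Trem2 and Syk, 26 for Hcst and all 27 for the other 6 genes.

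**Figure D1:**
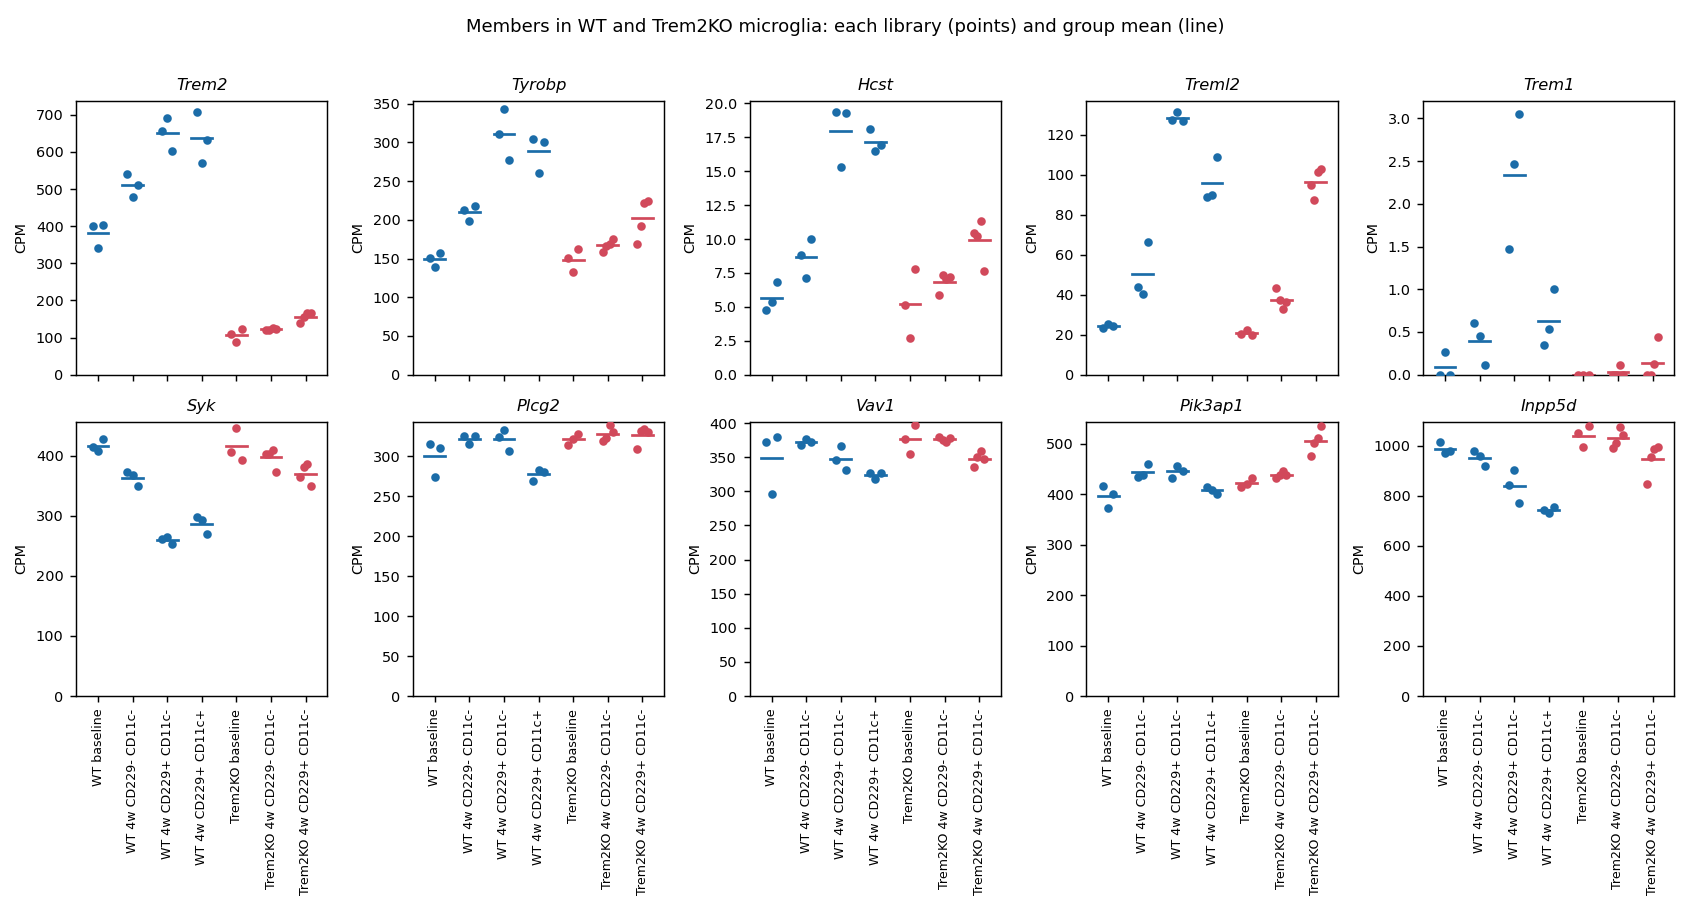
Each panel plots 1 gene in the 7 groups of WT and Trem2KO microglia, with points for single libraries in CPM on a linear axis and bars for the group mean. Trem2 sits between 88.3 and 166 CPM in the 11 Trem2KO libraries and between 342 and 707 CPM in the WT libraries, and Syk falls with the CD229 gate in WT cells but stays between 349 and 386 CPM in Trem2KO CD229+ cells.

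The receptor end of the pathway was higher in WT CD229- cells after cuprizone than in baseline cells. This first comparison sets CD229- CD11c- cells after the diet against baseline cells not split by CD229 or CD11c. Like every diet step below, it therefore combines the diet with the choice of gate. Treml2, Trem2, Tyrobp, Hcst and Pik3ap1 rose and Syk fell, 6 of 10 members past an adjusted p of 0.05 in edgeR's quasi-likelihood test, where 30.4% of all 12647 genes passed. Trem2 read 400, 342 and 403 CPM in the 3 WT baseline libraries and 541, 478 and 509.8 CPM in the CD229- libraries. The groups did not overlap, and the fitted difference was 0.43 ± 0.09 (log2, SE; edgeR adjusted p = 0.000506), a 1.35-fold rise. Tyrobp read 151, 140 and 157 CPM at baseline and 213, 199 and 218 CPM after 4 weeks, again without overlap (1.42-fold, edgeR adjusted p = 0.000113).

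Treml2 had the steepest rise of the 10. Its baseline libraries read 23.2, 25.2 and 24.6 CPM and its cuprizone libraries 43.9, 40.2 and 66.4 CPM, a difference of 1.05 ± 0.13 (log2, SE; edgeR adjusted p = 4.11e-07). Every cuprizone library was above every baseline library, and 1 of them stood well above the other 2. Hcst read 4.79, 5.38 and 6.81 CPM at baseline and 8.79, 7.15 and 10.0 CPM after the diet, separate but close (1.54-fold, edgeR adjusted p = 0.041). Syk read 415, 408 and 428 CPM at baseline and 373, 368 and 350 CPM after the diet, lower in every library (-0.19 ± 0.06 log2, edgeR adjusted p = 0.0123). Pik3ap1, which brings PI3K to the membrane, rose 1.13-fold (edgeR adjusted p = 0.00959), while Plcg2 (0.11 log2), Vav1 (0.10) and Inpp5d (-0.04) did not pass.
The Hcst call was lost without any of 4 libraries, WT baseline replicates 1 and 2 and CD229- replicates 1 and 3 (adjusted p from 0.0877 to 0.189), that of Pik3ap1 without baseline replicate 2 or CD229- replicate 3 (0.109 and 0.0776), and that of Syk without CD229- replicate 3 (0.0501).

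Along the CD229 gate of the same mice the pathway split further, with the receptor and adaptors higher and Syk lower. Treml2, Hcst, Tyrobp, Trem2 and Trem1 rose from CD229- to CD229+ cells and Syk and Inpp5d fell, 7 of 10 members, where 48.8% of all genes passed. Treml2 read 127, 132 and 127 CPM in CD229+ cells, each above all 3 CD229- libraries, a 2.53-fold rise (1.34 ± 0.12 log2, edgeR adjusted p = 5.85e-10). Hcst read 19.4, 15.3 and 19.3 CPM, each above the 3 CD229- libraries (2.07-fold, edgeR adjusted p = 0.000182). Tyrobp read 311, 344 and 278 CPM (1.46-fold, edgeR adjusted p = 1.51e-05) and Trem2 655, 691 and 603 CPM (1.26-fold, edgeR adjusted p = 0.00266), both without overlap with CD229- cells.

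Syk went the other way along that gate. Its CD229+ libraries read 261, 264 and 254 CPM, all below the lowest CD229- library at 350 CPM, a change of -0.50 ± 0.06 (log2, SE; edgeR adjusted p = 4.74e-08). Inpp5d, the phosphatase that limits PI3K signals, fell to 0.871 of its CD229- level (edgeR adjusted p = 0.00976), a call lost without CD229+ replicate 3 (adjusted p = 0.129). Vav1, Plcg2 and Pik3ap1 did not pass.
Trem1 had 5, 4 and 1 reads in CD229- cells and 11, 16 and 29 in CD229+ cells. The ratio of the summed reads, scaled by depth, was 6.23, with a 95% counting interval from 3.15 to 13.7 (edgeR adjusted p = 0.00196). Of the 8 neutrophil markers, S100a8, S100a9, Ly6g and Retnlg were at 0 in all 6 of these libraries, and the list summed to between 0.24 and 0.44 CPM in CD229- cells and between 0.63 and 0.94 CPM in CD229+ cells.
The T and NK cell list, which matters for Hcst since lymphocytes also express it, summed to between 0.60 and 3.56 CPM in CD229- cells and between 3.21 and 5.06 CPM in CD229+ cells, with Cd3e, Cd3g, Nkg7, Ncr1 and Gzma at 0 in every one of them. Its part in the rise of Hcst was not tested.

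CD11c moved fewer members, and fewer of all genes, than CD229 did. From CD229+ CD11c- to CD229+ CD11c+ cells, 3 of 10 members passed, all lower, where 23.3% of all genes passed. Treml2 read 88.9, 90.0 and 109 CPM in CD11c+ cells, below every CD229+ CD11c- library (0.749-fold, edgeR adjusted p = 0.00834), and Plcg2 fell to 0.869 of its level (edgeR adjusted p = 0.00658). Trem1 had 3, 5 and 8 reads, 3.87-fold fewer by depth (counting interval 2.19 to 7.22, edgeR adjusted p = 0.0221). Trem2 (571 to 707 CPM), Tyrobp (261 to 304 CPM) and Hcst (16.5 to 18.1 CPM) overlapped with CD11c- cells. Syk was higher (0.15, edgeR adjusted p = 0.053) and Inpp5d lower (-0.17, adjusted p = 0.0502), both just short of the threshold. DESeq2 called Syk higher (adjusted p = 0.042) and Inpp5d and Pik3ap1 lower (0.0248 and 0.0425), but not Trem1 (0.08). In edgeR Syk passed without CD11c+ replicate 3 (0.0298) and Inpp5d without CD229+ CD11c- replicate 3 (0.0098). The Treml2 call was lost without CD11c+ replicate 1 or 2 (adjusted p = 0.0504 and 0.0524), and that of Trem1 without CD229+ CD11c- replicate 2 or 3 or CD11c+ replicate 1 or 2 (0.0616 to 0.122).

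Trem2 reads were lower in every Trem2KO library but not absent. In baseline cells the 3 Trem2KO libraries read 109, 88.3 and 122 CPM, 0.278 of WT (-1.85 ± 0.09 log2, edgeR adjusted p = 3.51e-13). In CD229- cells they read 119, 121, 126 and 124 CPM (0.24-fold), and in CD229+ cells 140, 154, 166 and 165 CPM (0.239-fold). The labels and the counts do not say which part of the gene these reads come from.

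At baseline no member other than Trem2 differed detectably between Trem2KO and WT cells. Of the 10 members only Trem2 itself passed, where 0.577% of all genes did. Tyrobp read 150, 132 and 163 CPM in Trem2KO cells, which brackets the WT libraries (-0.01 ± 0.09 log2). Treml2 (-0.22 ± 0.14), Hcst (-0.14 ± 0.24) and Syk (-0.01 ± 0.06) also overlapped. Trem1 had 0 reads in the 3 Trem2KO libraries, which allows up to 0.0991 CPM, and 0, 3 and 0 in WT. Those 3 reads lie in WT replicate 2, the library that stood apart in neutrophil markers.

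After 4 weeks of cuprizone Tyrobp was lower in Trem2KO than in WT cells of both CD229 gates, and Hcst in CD229+ cells. In CD229- cells Tyrobp read 158, 166, 169 and 175 CPM, below all 3 WT libraries (0.793-fold, -0.33 ± 0.09 log2, edgeR adjusted p = 0.00632). Treml2 read 43.4, 37.1, 32.7 and 36.5 CPM, overlapping the WT range of 40.2 to 66.4 CPM (0.745-fold, edgeR adjusted p = 0.0113). With Trem2 itself that made 3 of 10 members lower, where 20.3% of all genes passed. The Treml2 call rested on the high WT CD229- replicate 3, and without it the difference was -0.16 (edgeR adjusted p = 0.33).

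In CD229+ cells the difference reached 8 of 10 members, counting the deleted Trem2, where 52.5% of all genes passed. Trem2, Tyrobp, Hcst, Treml2 and Trem1 were lower in Trem2KO cells and Syk, Inpp5d and Pik3ap1 were higher. Tyrobp read 168, 193, 222 and 224 CPM, below the lowest WT library at 278 CPM (-0.63 ± 0.08 log2, edgeR adjusted p = 5.3e-07). Hcst read 10.4, 10.2, 11.3 and 7.67 CPM, all below the WT libraries (0.55-fold, edgeR adjusted p = 0.000474). The T and NK list was lower in these cells too, at 0 to 1.33 CPM against 3.21 to 5.06 CPM in WT, and its part in the Hcst difference was not tested. Treml2 read 94.6, 87.2, 101 and 103 CPM against 127 to 132 CPM in WT (0.747-fold, edgeR adjusted p = 0.00153).

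Syk was the member furthest above WT. Its Trem2KO CD229+ libraries read 364, 380, 386 and 349 CPM, all above the WT libraries at 254 to 264 CPM, a difference of 0.51 ± 0.05 (log2, SE; edgeR adjusted p = 1.14e-08). Pik3ap1 read 476, 501, 512 and 535 CPM against 432 to 456 CPM (1.13-fold, edgeR adjusted p = 0.00245). Inpp5d was 1.12-fold higher (edgeR adjusted p = 0.0172), a call lost without Trem2KO replicate 3 or 4 or WT replicate 3 (adjusted p = 0.0524, 0.0539 and 0.131). Trem1 had 0, 0, 1 and 3 reads against 56 in the 3 WT libraries, 21.6-fold fewer by depth (counting interval 7.99 to 82.1, edgeR adjusted p = 2.58e-05). The neutrophil markers summed to between 0 and 4.09 CPM in these Trem2KO libraries and between 0.63 and 0.94 CPM in the WT ones. Their part in the Trem1 difference was not tested.

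Within Trem2KO mice Treml2 still rose at each step. From baseline to CD229- cells it was the only member to pass, where 7.28% of all genes passed, with a 1.80-fold rise (0.85 ± 0.13 log2, edgeR adjusted p = 5.26e-05). From CD229- to CD229+ cells it rose 2.54-fold (edgeR adjusted p = 2.54e-10), and Trem2 (1.26-fold), Tyrobp (1.19-fold), Hcst (1.44-fold) and Pik3ap1 (1.14-fold) rose too, 5 of 10 members, where 27.5% of all genes passed. Syk changed by -0.12 (edgeR adjusted p = 0.066), and it passed without CD229- replicate 4 (-0.15, adjusted p = 0.0334). Over this CD229 step the border macrophage markers went from between 19.7 and 30.8 CPM to between 80.2 and 109 CPM, without overlap. Hcst lost its call in 7 of 8 fits that each left out 1 library (the exception was CD229+ replicate 4; highest adjusted p = 0.124), and Tyrobp lost its call without CD229+ replicate 3 or 4 (0.0855 and 0.0886). Without baseline replicate 3 the first step gained Hcst (0.82, edgeR adjusted p = 0.0237) and Trem2 (0.32, edgeR adjusted p = 0.0307).

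The difference between the genotypes' steps was tested directly as an interaction. For the diet step no member passed in edgeR, where 3.95% of all genes did. Only Tyrobp was under an unadjusted p of 0.05 (-0.32, adjusted p = 0.143), and DESeq2 also called 0. For the CD229 step 2 of 10 members passed, where 14.8% of all genes did. Syk fell by less in Trem2KO than in WT cells (difference of steps 0.38 ± 0.07 log2, edgeR adjusted p = 0.00086), and Pik3ap1 differed by 0.20 ± 0.07 (adjusted p = 0.042), a call lost in 11 of 14 fits that each left out 1 library. The Treml2 steps differed by 0.00 (edgeR adjusted p = 0.993), and those of Tyrobp by -0.30 (0.101) and of Hcst by -0.52 (0.246). Without WT CD229+ replicate 3 Tyrobp passed (-0.38, edgeR adjusted p = 0.0462).

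Transcript length moved with several of these changes. Genes listed at up to 1000 bases had a median change of 0.25 (log2) in the WT diet step and 0.30 in the WT CD229 step, and those over 4000 bases -0.08 and -0.10. In the comparison of Trem2KO with WT CD229+ cells the medians ran from -0.37 for the shortest to 0.14 for the longest class. Hcst (436 bases), Tyrobp (565) and Trem2 (1139) are short and Syk (5087), Inpp5d (4911) and Treml2 (4502) are long, so Treml2 rose against its class.
With the length trend removed, a choice made after seeing the data, the WT diet calls of Tyrobp (0.18, edgeR adjusted p = 0.0764), Hcst (0.27, adjusted p = 0.32) and Syk (-0.13, adjusted p = 0.072) were lost. So were Inpp5d in the WT CD229 step (adjusted p = 0.333), Tyrobp in the Trem2KO comparison of CD229- cells (-0.09, adjusted p = 0.443), and Inpp5d and Pik3ap1 in that of CD229+ cells (adjusted p = 0.522 and 0.151). The Trem2KO CD229 step lost Tyrobp (adjusted p = 0.598) and Hcst (0.18), and the interaction lost Pik3ap1 (0.22).

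The other genes of the pathway moved in both directions, as all genes did. The 6 lists of pathway genes were read beside the members. Of all genes, 18.8% were higher and 11.7% lower in the WT diet step. In the WT CD229 step 24.6% were higher and 24.2% lower. In the WT diet step 2 of 6 tested TREM-family and DAP12- or DAP10-paired receptors were higher and 0 lower, and among the 16 PI3K, AKT and phospholipase genes 2 were higher and 5 lower. In the WT CD229 step 10 of those 16 were lower and 2 higher (median -0.21, against -0.01 for all genes), including Pik3r1, a regulatory subunit of PI3K (-0.65 ± 0.06 log2, edgeR adjusted p = 1.11e-09). Of the 9 other ITAM adaptors and Src or Tec kinases 4 were higher and 4 lower. The kinase Fyn rose by 1.03 (edgeR adjusted p = 9.12e-11). Among the 12 inhibitory genes 5 were higher and 6 lower, with the adaptor Dok3 at -1.22 (edgeR adjusted p = 5.93e-10).

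Among the ligands and surface partners, Lgals3, which encodes galectin-3, rose by 3.58 (log2) with the diet and by 1.15 with CD229 in WT cells (edgeR adjusted p = 1.45e-11 and 4.61e-06), and along CD229 2 of 9 genes of its list were higher and 0 lower. Cd300lb, an activating receptor that pairs with DAP12, rose by 2.75 with the diet (edgeR adjusted p = 1.25e-12).
Between Trem2KO and WT CD229+ cells Cd300lb was lower by 3.26 ± 0.15 and Lgals3 differed by -1.91 ± 0.17, and 4 of 9 ligands and partners were lower and 0 higher. In the same cells Fyn was at -2.34 and the adaptor Dok2 at -3.12, while Pik3r1 (0.57) and the sialic acid receptors Siglech (0.51) and Cd33 (0.69) were higher (edgeR adjusted p at most 1.46e-07 for each). The PI3K list had 6 of 16 higher and 3 lower, and the adaptors and exchange factors 1 of 10 higher and 5 lower, among them Lat2 (-1.09). In this comparison 26% of all genes were higher and 26.5% lower.
At baseline Cd300lb (-2.40, edgeR adjusted p = 0.000202) and the kinase Fgr (-1.63, edgeR adjusted p = 0.0024) were already lower in Trem2KO cells. No adaptor, PI3K or inhibitory gene of the lists passed there, where 0.577% of all genes did. For the CD229 step the genes in which the genotypes differed included Fyn (-1.26), Dok3 (0.96), Pik3r1 (0.35) and Siglech (0.34).

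At 5 weeks the Clec7a gate of Cre mice separated the receptor, both adaptors and Syk. In the diet step before it, from Cre baseline to Clec7a- cells, 2 of 10 members passed, where 28.8% of all genes did. Treml2 read 19.2, 22.8 and 21.1 CPM at baseline and 46.6, 50.8 and 54.7 CPM in Clec7a- cells, a 2.39-fold rise with no overlap (edgeR adjusted p = 2.93e-10). Inpp5d fell to 0.875 of baseline (edgeR adjusted p = 0.0268), a call lost without Cre baseline replicate 1 or 3 or Clec7a- replicate 1 or 3 (adjusted p from 0.0575 to 0.125) and with the length trend removed (0.194). Trem2 read 346, 389 and 397 CPM at baseline and 392, 428 and 400.0 CPM in Clec7a- cells, which overlap (0.09 ± 0.09 log2), and Tyrobp did not pass either (0.16, adjusted p = 0.212).

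From Clec7a- to Clec7a+ cells of the Cre mice 6 of 10 members passed, where 37.9% of all genes did. Trem2 read 549, 532 and 574 CPM in Clec7a+ cells, all above Clec7a- cells (1.36-fold, edgeR adjusted p = 0.000134). Tyrobp went from 156, 184 and 168 CPM to 256, 271 and 326 CPM (1.68-fold, edgeR adjusted p = 6.59e-08). Hcst went from 8.07, 7.60 and 7.75 CPM to 15.3, 15.2 and 13.6 CPM (1.90-fold, edgeR adjusted p = 2.93e-06). Treml2 went up to 84.5, 83.1 and 95.0 CPM (1.72-fold, edgeR adjusted p = 3.42e-07).
Syk fell here as well. It read 380, 375 and 379 CPM in Clec7a- cells and 318, 277 and 289 CPM in Clec7a+ cells (-0.35 ± 0.06 log2, edgeR adjusted p = 1.18e-05). Trem1 had 0, 5 and 2 reads in Clec7a- cells and 12, 22 and 3 in Clec7a+ cells, 6.86-fold more by depth (counting interval 3.02 to 18.2), and its call (edgeR adjusted p = 0.00402) was lost without Clec7a+ replicate 2 (0.0722). The T and NK list summed to between 0.72 and 1.11 CPM in Clec7a- cells and between 3.32 and 5.73 CPM in Clec7a+ cells, where 7 of its 8 genes were at 0. Its part in the rise of Hcst was not tested. The border macrophage markers moved with the same gate, from between 20.7 and 31.8 CPM in Clec7a- cells to between 100.1 and 184 CPM in Clec7a+ cells, where all 7 averaged at least 1 CPM.

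Once Clec7a was present, CD229 and CD11c moved only Hcst and Treml2 past the threshold. With CD229 both rose, to 21.2, 19.7 and 22.4 CPM for Hcst (1.42-fold, edgeR adjusted p = 0.0131) and to 120, 122 and 145 CPM for Treml2 (1.48-fold, edgeR adjusted p = 0.000497), and 5.53% of all genes passed. With CD11c both fell, Hcst to 0.702 (edgeR adjusted p = 0.00501) and Treml2 to 0.806 (edgeR adjusted p = 0.031), where 14.1% of all genes passed. The Hcst call of the CD229 step was lost without Clec7a+ CD229- or Clec7a+ CD229+ replicate 3 (adjusted p = 0.0735 and 0.0594). The Treml2 call of the CD11c step was lost without CD229+ CD11c- replicate 3 or any 1 of the 3 CD11c+ libraries (adjusted p from 0.0503 to 0.22).

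**Figure D2:**
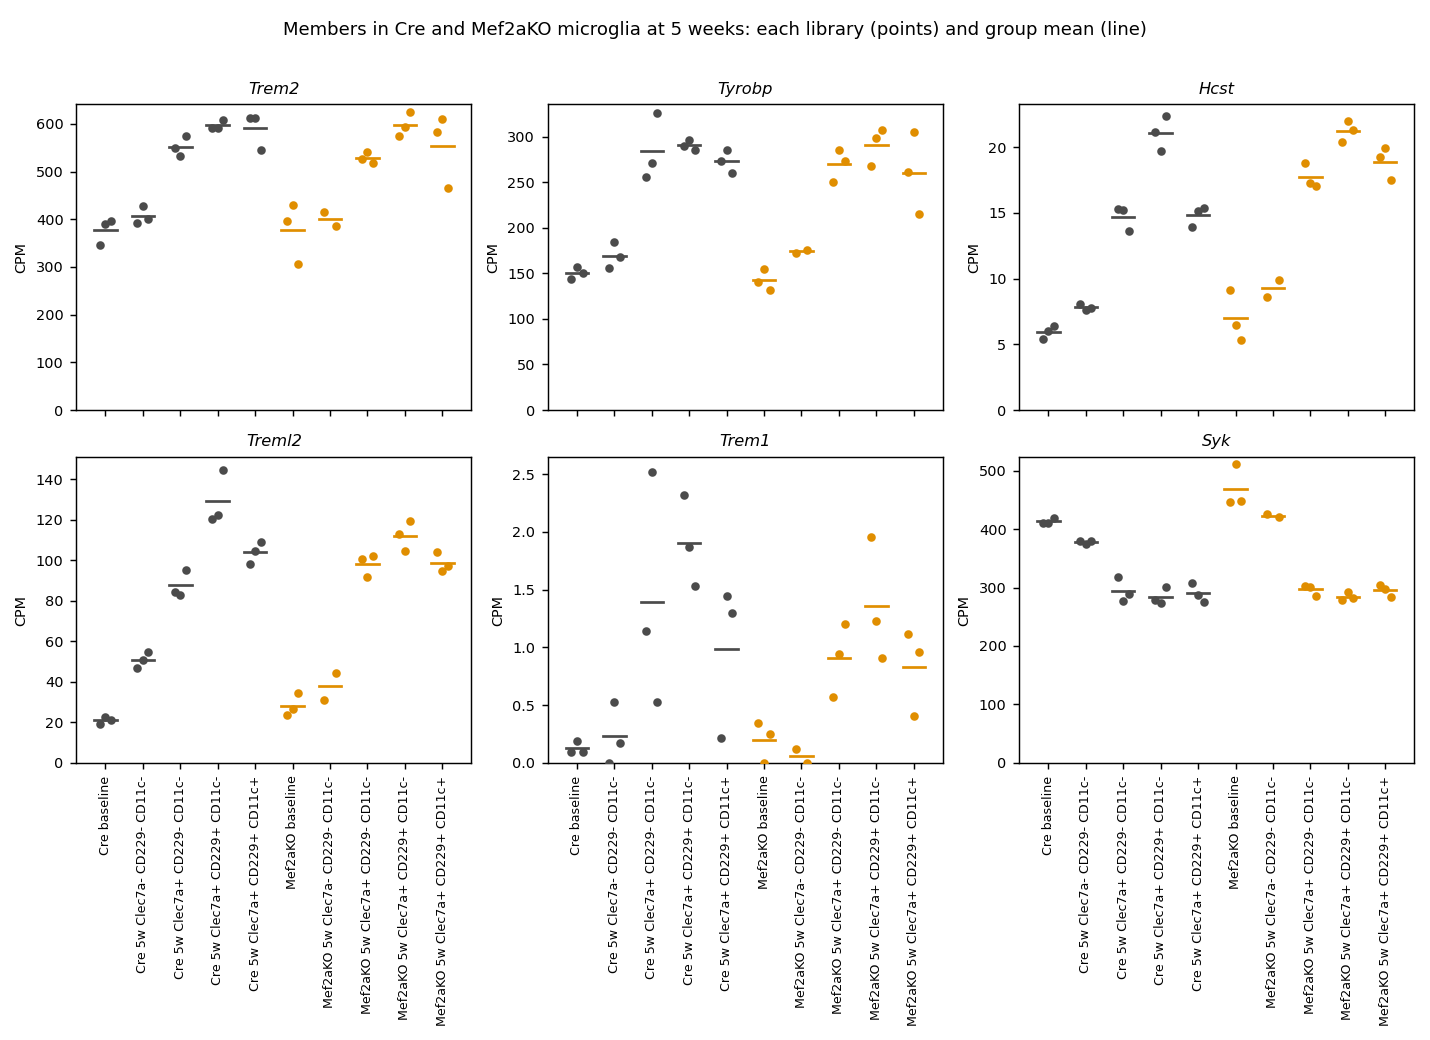
Points are CPM per library on a linear axis for 6 genes in Cre and Mef2aKO microglia at baseline and in the 4 gates at 5 weeks, with bars for group means. Treml2 climbs from 19.2 to 22.8 CPM at Cre baseline to 120 to 145 CPM in Clec7a+ CD229+ cells, and in Clec7a- cells the 2 Mef2aKO libraries read 31.0 and 44.4 CPM, below the 3 Cre libraries.

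In the groups labelled Mef2aKO the Clec7a step was of the same kind. The gene-level counts could not check the deletion: Mef2a averaged 860 CPM at baseline in the Mef2aKO libraries against 972 CPM in Cre, and 889 against 798 CPM in Clec7a- cells, and the labels do not say which exons are floxed. Trem2 (1.32-fold), Tyrobp (1.54-fold), Hcst (1.91-fold), Treml2 (2.59-fold) and Trem1 rose from Clec7a- to Clec7a+ cells and Syk fell to 0.70 (edgeR adjusted p from 1.04e-10 for Treml2 to 0.0184 for Trem1). That is 6 of 10 members, where 45.8% of all genes passed. Syk went from 426 and 420 CPM to 303, 302 and 285 CPM, without overlap. Over this step the border macrophage markers went from 8.74 and 12.7 CPM to between 35.4 and 50.6 CPM, and the T and NK list from 0.236 and 0.492 CPM to between 3.12 and 4.73 CPM. Trem1 had 1 and 0 reads in Clec7a- cells and 6, 7 and 10 in Clec7a+ cells, a ratio of 14.6 with a counting interval from 2.36 to 599. Its call was lost without Clec7a- replicate 2 or Clec7a+ replicate 3 (adjusted p = 0.147 and 0.052), and with the length trend removed Trem2 (0.17, adjusted p = 0.102) and Tyrobp (0.17, adjusted p = 0.109) no longer passed.

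The diet step before it called only Treml2 (0.41, edgeR adjusted p = 0.0493), where 7.85% of all genes passed. That call was lost without Clec7a- replicate 2 (adjusted p = 0.743) or Mef2aKO baseline replicate 1 or 2 (0.202 and 0.115). Without baseline replicate 1 Hcst passed instead (0.65, edgeR adjusted p = 0.0112), and without baseline replicate 2 Tyrobp passed (0.35, edgeR adjusted p = 0.0477). CD229 called no member in edgeR (0.47% of all genes; 2 at an unadjusted p under 0.05, Trem2 and Hcst; DESeq2 0). With CD11c, Plcg2 (-0.21, edgeR adjusted p = 0.0457) and Inpp5d (-0.23, edgeR adjusted p = 0.0242) fell, where 10.7% of all genes passed. Each was lost without CD229+ CD11c- replicate 2 or 3 or CD11c+ replicate 1 or 3 (adjusted p from 0.0737 to 0.293), and without CD11c+ replicate 2 Tyrobp (-0.31) and Pik3ap1 (-0.19) passed (0.0207 and 0.0257).

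Between Mef2aKO and Cre cells of the same gate Treml2 was the only member to pass, in opposite directions. At baseline it read 23.7, 26.6 and 34.3 CPM in Mef2aKO cells, all above the Cre libraries (1.35-fold, 0.43 ± 0.12 log2, edgeR adjusted p = 0.0398; 3.84% of all genes passed). In Clec7a- cells it read 31.0 and 44.4 CPM, below the Cre libraries (0.75-fold, -0.42 ± 0.13 log2, edgeR adjusted p = 0.0483; 5.53% of all genes passed). The baseline call was lost without any of the 3 Cre libraries or Mef2aKO replicate 3 (adjusted p from 0.0572 to 0.265), and the Clec7a- call without Cre replicate 2 or 3 or Mef2aKO replicate 1 (0.0994 to 0.703). Without Mef2aKO replicate 3 Syk passed at baseline (0.21, edgeR adjusted p = 0.047).
In Clec7a+ cells no member passed in any of the 3 gates by edgeR or DESeq2. There 3.7%, 4.9% and 4.69% of all genes passed, and 0, 2 and 1 members were under an unadjusted p of 0.05. The Clec7a step of Treml2 was larger in Mef2aKO than in Cre cells by 0.59 ± 0.16 (log2, SE), just short of the threshold (edgeR adjusted p = 0.0529), so 0 members passed the interaction, where 1.95% of all genes did. Treml2 was the 1 member under an unadjusted p of 0.05, and DESeq2 called it (adjusted p = 0.0318). In edgeR it also passed without Cre Clec7a- replicate 1, Cre Clec7a+ replicate 3, Mef2aKO Clec7a- replicate 2 or Mef2aKO Clec7a+ replicate 2 (adjusted p from 0.00684 to 0.0483).

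In baseline Mef2aKO cells split by CD229 no member moved detectably. None of the 9 members tested passed (0.15% of all genes; 0 at an unadjusted p under 0.05; DESeq2 0), and the widest spread was in CD229+ cells, where Tyrobp read 216 and 134 CPM. Against Cre baseline cells, 0 of 9 passed in the CD229+ cells (1.59% of all genes; DESeq2 0), with Treml2 alone under an unadjusted p of 0.05. Without CD229+ replicate 2, which left that group with 1 library, Tyrobp differed by 0.52 (log2). Replicate 2 has the tag PE150 in its title, which CD229+ replicate 1 and the Cre baseline libraries lack. With all libraries kept and the tag as a covariate, no member was called in this comparison. The effect of the tag itself on Tyrobp was not tested.

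At 6 weeks Treml2 passed in all 3 steps of the Cre mice, while Trem2 and Tyrobp passed in none of them when libraries were compared without regard to their number or tag. Trem2 read 441, 319 and 292 CPM in CD229- cells, 469, 359 and 295 CPM in CD229+ cells and 622, 473 and 346 CPM in CD229+ CD11c+ cells, so all 3 gates overlapped, but within each of the 3 replicate numbers it was higher at each gate. In each gate replicate 1, the library without the tag PE150 in its title, was the highest. The labels do not explain the tag, which 17 of the 81 libraries carry. With the tag as a covariate Trem2 (0.35, edgeR adjusted p = 0.0326) and Syk (-0.25, adjusted p = 0.0308) passed in the CD11c step. Treml2 rose at each step: 1.41-fold with the diet (edgeR adjusted p = 0.0177), 1.74-fold with CD229 (adjusted p = 2.7e-05) and 1.49-fold with CD11c (adjusted p = 0.000629).

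Treml2 was the only member called in the diet step (5.85% of all genes passed). It read 27.2, 27.97 and 33.3 CPM in CD229- cells, all above Cre baseline, then 44.8, 62.0 and 49.5 CPM with CD229 and 80.4, 80.4 and 73.2 CPM with CD11c, with no overlap between any of the gates. With CD229, Hcst (1.48-fold, edgeR adjusted p = 0.038) and Trem1 also rose (3 of 10 members, 17.2% of all genes). Trem1 had 1, 0 and 0 reads in CD229- cells and 2, 9 and 4 in CD229+ cells, a ratio of 15.1 with a counting interval from 2.32 to 635 (edgeR adjusted p = 0.0234). Over the CD229 step the border macrophage markers went from between 63.4 and 91.4 CPM to between 141 and 356 CPM and the 5 monocyte markers from between 8.22 and 14.4 CPM to between 22.9 and 30.8 CPM, both without overlap, with the monocyte genes Ly6c2 and Chil3 at 0 in both gates. With CD11c, Hcst rose from 9.57, 8.61 and 9.28 CPM to 16.6, 14.1 and 10.9 CPM (1.5-fold, edgeR adjusted p = 0.0217; 2 of 10 members, 17.2% of all genes).
The same-numbered libraries of the CD229 gates deviated together, and with that pairing as a block nested in genotype Tyrobp passed as well (0.30, edgeR adjusted p = 0.0285). The expression filter left Trem1 out of the paired fit. The Treml2 diet call was lost without Cre baseline replicate 1 or CD229- replicate 3 (adjusted p = 0.1 and 0.171), in untagged libraries only (0.709) and with the tag as a covariate (0.0661). The Hcst calls were lost with most single libraries left out: in the CD229 step CD229- replicate 2 or 3 or any CD229+ library (0.0593 to 0.159), and in the CD11c step CD11c- replicate 2 or 3 or CD11c+ replicate 1 or 2 (0.0596 to 0.145). Both were also lost with the length trend removed (0.42, edgeR adjusted p = 0.0789, and 0.36, adjusted p = 0.111), and the CD11c call in tagged libraries only (adjusted p = 0.194). Trem1 lost its call without CD229- replicate 2 or 3 or CD229+ replicate 2 (0.0904 to 0.178). Without 1 library, Syk passed in the CD229 step (CD229+ replicate 1; -0.33, 0.0254), and in the CD11c step Trem2 passed (CD229+ CD11c- replicate 1 or CD11c+ replicate 3; 0.0456 and 0.0262) and Tyrobp (CD11c+ replicate 3; 0.0179).

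Egr2KO mice at 6 weeks showed Treml2, Hcst and Trem1 higher in CD229+ cells. Egr2 itself averaged 10.5, 31.9 and 79.5 CPM in the CD229-, CD229+ and CD11c+ cells labelled Egr2KO, against 18.8, 49.2 and 108 CPM in the Cre cells, and the labels do not say which exons are floxed. Treml2 read 25.4 and 20.4 CPM at baseline, 34.6, 31.8 and 37.0 CPM in CD229- cells, 65.4, 73.8 and 90.1 CPM in CD229+ cells and 88.1, 82.9 and 95.0 CPM in CD11c+ cells. It rose with the diet (0.59, edgeR adjusted p = 0.0106) and with CD229 (2.22-fold, edgeR adjusted p = 1.49e-07), and the last 2 gates overlapped. With the diet Tyrobp passed too (0.60, edgeR adjusted p = 0.0498), which made 2 of 10 members, where 8.23% of all genes passed.

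With CD229, Hcst rose in Egr2KO cells from 5.83, 8.90 and 5.73 CPM to 12.3, 12.1 and 13.5 CPM, without overlap (1.75-fold, edgeR adjusted p = 0.0025). The border macrophage markers moved with this step, from between 44.0 and 69.9 CPM to at least 116 CPM, and fell with CD11c to between 32.8 and 35.1 CPM. Trem1 had 1, 3 and 2 reads in CD229- cells and 6, 18 and 27 in CD229+ cells, 7.98-fold more by depth (counting interval 3.42 to 22.8, edgeR adjusted p = 0.00173). That made 3 of 10 members, where 27.5% of all genes passed. With the nested block of same-numbered libraries Tyrobp (0.29, edgeR adjusted p = 0.0229) and Syk (-0.25, adjusted p = 0.0235) passed as well. The expression filter left Trem1 out of that fit. From CD229+ CD11c- to CD11c+ cells only Trem1 passed (4, 8 and 6 reads; 3.40-fold fewer, counting interval 1.95 to 6.19, edgeR adjusted p = 0.0356), where 11.7% of all genes did.
The Tyrobp diet call was lost in all 5 fits that left out 1 library (adjusted p from 0.0526 to 0.243), in DESeq2 (0.0713) and with the length trend removed (0.218), and that of Treml2 without Egr2KO baseline replicate 2 (0.191). Trem1 lost its CD11c call without any 1 of the CD11c+ libraries (0.0525 to 0.135) and in DESeq2 (0.0786). In the CD229 step Syk passed without CD229- replicate 2 or CD229+ replicate 1 (0.0153 and 0.0446).

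Between Egr2KO and Cre cells Treml2 and Trem1 were higher in CD229+ CD11c- cells, 2 of 10 members, where 2.46% of all genes passed. All 3 Egr2KO libraries of Treml2, at 65.4 to 90.1 CPM, were above the Cre libraries at 44.8 to 62.0 CPM (1.47-fold, 0.56 ± 0.12 log2, edgeR adjusted p = 0.00929). Trem1 had 51 reads against 15, a ratio of 4.50 with a counting interval from 2.49 to 8.61 (edgeR adjusted p = 0.037). Tyrobp, at 282, 248 and 214 CPM against 213, 186 and 146 CPM, was higher in Egr2KO cells by 0.45 without overlap but did not pass (adjusted p = 0.158). It passed with the tag as a covariate (0.45, edgeR adjusted p = 0.0343). The monocyte markers went the other way, at 13.1 to 16.8 CPM in Egr2KO and 22.9 to 30.8 CPM in Cre cells. Within the tagged libraries Treml2 differed by 0.55 (edgeR adjusted p = 0.0268) and in the untagged ones, 1 per group, by 0.54, while Trem1 lost its call in the tagged libraries (2.10, edgeR adjusted p = 0.111). With only the groups compared Treml2 lost its call as well (adjusted p = 0.0815). Treml2 also lost it without Cre replicate 1 or 3 or Egr2KO replicate 3 (adjusted p = 0.0666, 0.0764 and 0.096), and Trem1 without Cre replicate 1 or 3 (0.131 and 0.208).
No member passed at baseline (0.182% of all genes), in CD229- cells (0.19%), in CD11c+ cells (0.25%) or in the interaction of genotype with CD229 (0%), in edgeR or DESeq2. Unadjusted p was under 0.05 for 2 members in CD229- cells, Tyrobp and Trem1, and for 0 in the other 3 comparisons. In CD229- cells Tyrobp passed with only the groups compared (0.44, edgeR adjusted p = 0.0485) and without a filter (0.44, adjusted p = 0.00472). The Egr2KO baseline libraries carry the tag PE150 and the Cre baseline libraries do not, so genotype and tag cannot be told apart at baseline.

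In the whole microglia population at 5 weeks no member passed between Egr2KO and Cre mice in edgeR or DESeq2, where 0.92% of all genes passed. Trem2 read 539 and 691 CPM in Cre and 522 and 527 CPM in Egr2KO cells (-0.22, edgeR adjusted p = 0.523). Tyrobp read 262 and 356 CPM in Cre and 264 and 251 CPM in Egr2KO cells (-0.25, adjusted p = 0.492), and these 2 were the members under an unadjusted p of 0.05. The Cre libraries lay far apart: without Cre replicate 1, which left that group with 1 library assumed to vary like the other group, Trem2 (-0.39, edgeR adjusted p = 0.00117) and Tyrobp (-0.46, adjusted p = 0.000949) passed. Hcst read 13.3 and 17.4 CPM in Cre and 15.1 and 15.0 CPM in Egr2KO cells, which overlap. Egr2 averaged 70.2 CPM in the Cre and 22.6 CPM in the Egr2KO libraries.

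**Figure D3:**
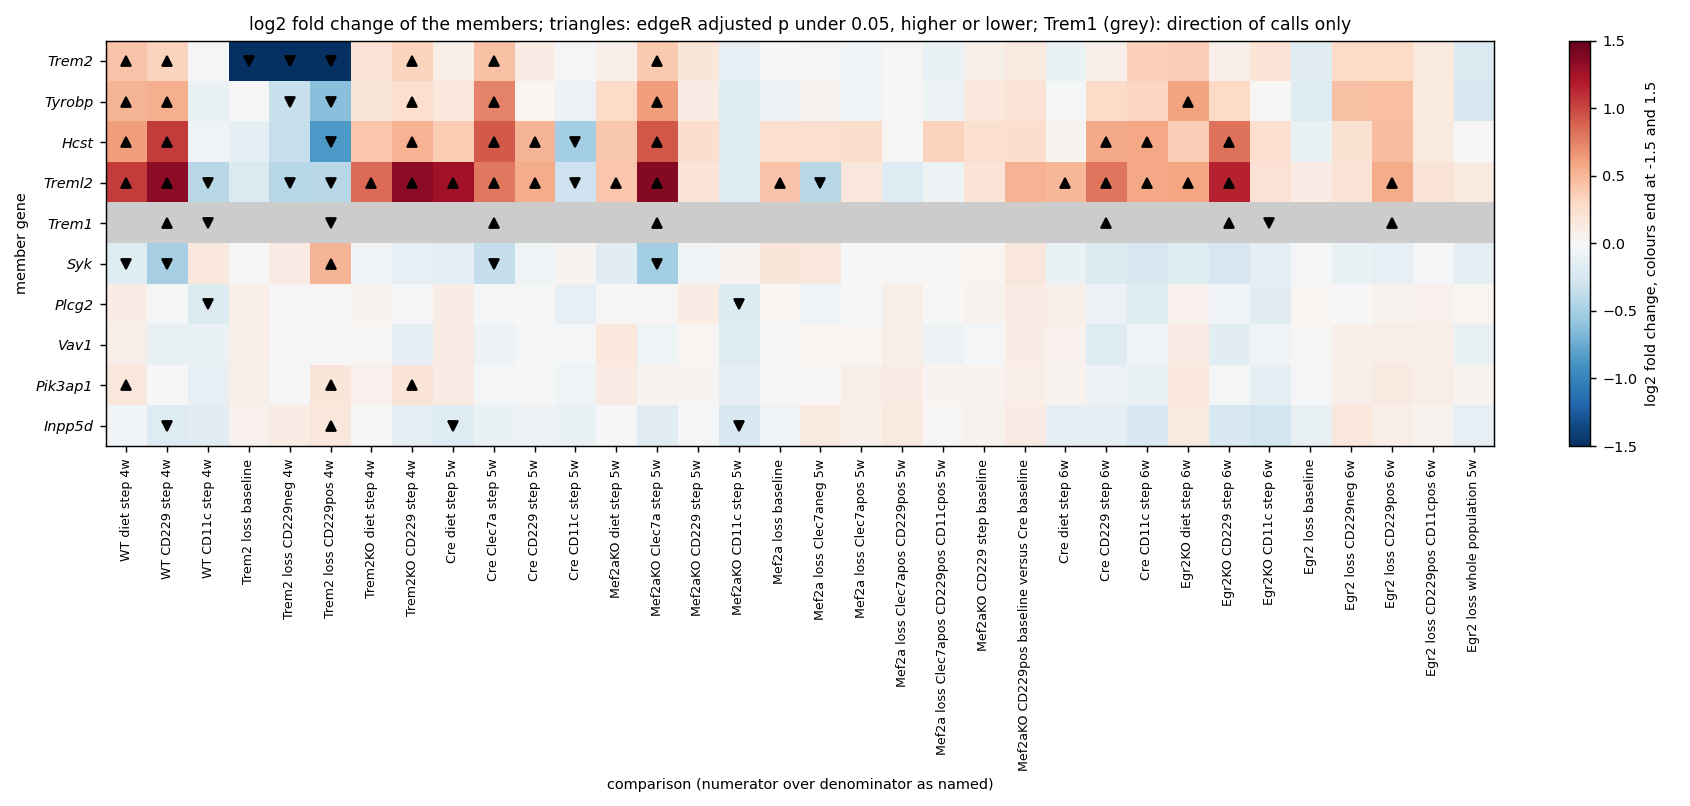
Rows are the 10 genes and columns 34 comparisons, with colour for the log2 fold change (the scale ends at 1.5 in either direction) and triangles for an edgeR adjusted p under 0.05, pointing up for higher and down for lower. Treml2 carries 21 triangles over all 38 comparisons, Hcst 11 and Vav1 0, and Trem1 is grey because its reads are too few for a fitted fold.

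Over the 38 comparisons, which share many libraries, the members passed unevenly. Treml2 passed in 21, 16 times higher and 5 times lower, and 10 of these calls held under every setting that tested the gene. Held calls are counted in this way for each gene, and some settings did not test Trem1. Hcst passed in 11 (5 held), Trem1 in 9 of 36 tested (3 held), Tyrobp in 8 (3 held) and Trem2 in 8 (7 held). The 3 lower calls of Trem2 are the comparisons of Trem2KO with WT cells, where its own deletion sets the outcome. Among its 5 higher calls, that of the Trem2KO CD229 step rests on the reads left in Trem2KO cells. Syk passed in 6, 2 times higher and 4 times lower (5 held), Inpp5d and Pik3ap1 in 4 each (0 and 1 held) and Plcg2 in 2 (1 held). Vav1 passed in none.

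**Figure D4:**
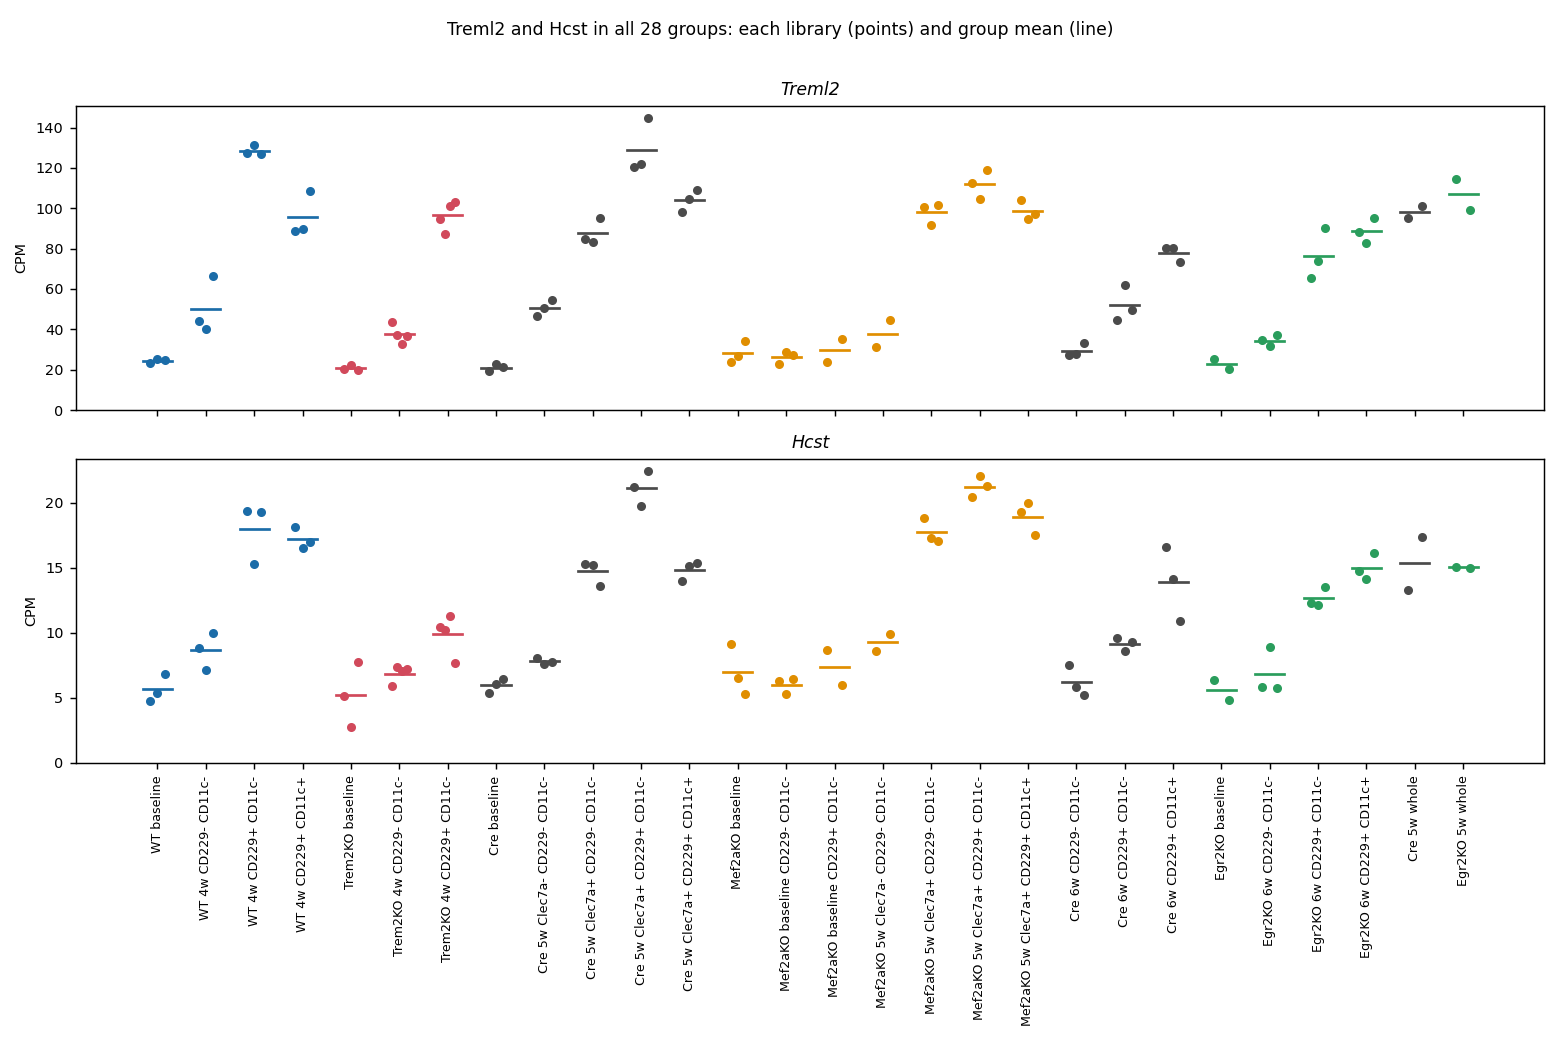
Treml2 (upper) and Hcst (lower) are plotted in CPM on a linear axis for each library of the 28 groups, with bars for group means. Treml2 lies near 20 CPM in the baseline groups of WT, Trem2KO and Cre mice and reaches 145 CPM, and Hcst runs from 2.73 to 22.4 CPM.

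The genes closest in profile to the members were found by Pearson's r between group means of log2 CPM less the mean of the experiment, as a description, over groups that share baseline libraries, depth and gene length effects. Among 9917 genes Trem2 was closest to Arhgdia (r = 0.986), Irf8 (0.983), a transcription factor of the microglial lineage, Ctsa (0.98), Clta (0.979) and Cyba (0.978) over the 25 groups without Trem2KO, and Tyrobp ranked 6 (0.978). Tyrobp itself was closest to Ctsa (0.997), which encodes a lysosomal protease, and to Cd68 (0.993), a lysosomal membrane gene, over 28 groups. For Syk the closest were Rassf2 (0.986) and Mast3 (0.986). Its profile ran opposite to those of Hcst (-0.94), Tyrobp (-0.94), Treml2 (-0.92) and, over the 25 groups, Trem2 (-0.92). In likeness to Syk, Hcst ranked 9257, Tyrobp 9213 and Treml2 8824 of the 9917 genes, so many other genes ran more opposite.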

How the data were processed

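Polyadenylated RNA of sorted mouse microglia was sequenced as strand-marked (dUTP) libraries, per the labels' protocols. The authors deposited raw counts per gene and, in separate tables, TPM. The submitters' processing notes name fastp 0.20.0, STAR 2.7.0f, HOMER 4.11, DESeq2 and the builds mm10 and GRCm38, without their roles, and the strand setting of the counting is not given in the sources used here. The deposited TPM of the listed genes sum to between 490797 and 513360 per library and were used only to compare genes per length.

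Groups were taken from the labels. The members, pathway lists and markers were chosen with earlier results of these data known. Each experiment was fitted on its own count tables with edgeR 4.0.16 (R 4.3.3): filtering by expression within groups, TMM factors, 1 mean per group, the quasi-likelihood test and Benjamini-Hochberg adjustment over all genes tested, with a threshold of 0.05. The WT and Trem2KO tables were joined on 24910 genes, and 214 were left out. The 3 Cre baseline libraries served in the 5-week, baseline CD229 and 6-week fits, and the Mef2aKO baseline libraries in 2 of them, so those comparisons share controls. All 10 members were named in every comparison, and other genes by a rule: for each list, the gene with the lowest p among those passed in each direction, and for likeness the 5 genes with the highest r, among genes of at least 5 CPM on average. Some items that the rule selects are not reported here.

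CPM were scaled with TMM factors over all 81 libraries. Trem1, with few reads, is given as read sums with exact 95% intervals, which cover counting error only, and the limit for 0 reads is 3 counts. Replicate pairs differed beyond sampling noise (chi-square over degrees of freedom 1.56 to 16.1). The fits were tested on simulated counts. Deviations of same-numbered libraries correlated above 0.1 in every pair only for the 6-week CD229 steps of Cre (0.17 to 0.288) and Egr2KO (0.121 to 0.176) mice, which were therefore taken as paired there. Alternatives were DESeq2 1.42.0, other size factors, no filter, only the groups compared, replicate blocks, each library left out, the PE150 tag, and the length trend removed. Python 3.11.15 and matplotlib 3.10.9 made the promoter matches and plots.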

Additional observations from a re-analysis of the deposited data

Results flagged for a closer look

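In the groups of 4 libraries, 20 group and gene pairs were checked for 1 library standing apart from the other 3, which chance gives in about 1 in 20. Plcg2 read 310 CPM (309.5) in replicate 1 of the Trem2KO CD229+ cells and between 330.5 and 334.5 CPM in the other 3 libraries. Trem1 read 0.115 CPM, which is 1 read, in replicate 3 of the Trem2KO CD229- cells and 0 in the other 3. A single read in 4 libraries stands apart by construction, so this value says nothing about that library.

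The genotypes differed in the CD229 step of 2 genes, by the interaction test in edgeR. Syk differed by 0.38 (log2, Trem2KO step minus WT step; adjusted p = 0.00086), and Pik3ap1 by 0.20 (adjusted p = 0.042).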

How the results depend on the processing

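No call reversed under any alternative. Values of 378 gene and comparison pairs were recomputed in most settings: calls lost and gained numbered 4 and 9 with DESeq2 (370 pairs with an adjusted p), 4 and 2 with other size factors, 6 and 13 without a filter, 11 and 7 with only the groups compared (343 pairs), 17 and 6 with the length trend removed, and 97 and 30 over 2482 values with 1 library left out. The number of members called moved by more than 1.5 times as follows. A member that a setting did not test, such as one left out by the expression filter, counts there as not called. With DESeq2 it became 5 in the WT CD11c step and the Trem2KO comparison of CD229- cells, 1 in the Mef2aKO CD11c step, the Mef2a interaction, the Egr2KO diet step and the Egr2KO comparison of CD229+ cells, and 0 in the Egr2KO CD11c step. With other size factors it became 1 in the Trem2 CD229 interaction, the Mef2aKO CD11c step and the Egr2KO diet step, and 0 in the Mef2aKO comparison of Clec7a- cells. With the length trend removed it became 5 in the WT CD11c step, 3 in the Trem2KO CD229 step and 1 in 6 others. Without a filter it became 2 in the Trem2KO and Mef2aKO diet steps, 4 in the 6-week Cre CD11c step and 0 or 1 in 4 others. With only the groups compared 11 counts became 0 or 1. The cause was not tested.

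With the replicate block, the Trem2KO comparison of CD229- cells had 5 members and the Mef2a interaction 1 (Treml2, adjusted p = 0.0399), 8 calls were gained and 0 lost. With the block nested in genotype 6, 8, 5 and 0 members passed in the WT CD11c, Trem2KO CD229, 6-week Cre CD11c and Egr2KO CD11c steps. The 0 is not a lost call, since the expression filter left Trem1 out of the 6-week fit. The gains included Syk in the Trem2KO CD229 step (-0.12, edgeR adjusted p = 0.00624). In the 6-week Cre CD11c step Trem2 (0.35, adjusted p = 0.00579) and Tyrobp (0.30, adjusted p = 0.025) were gained. With the replicate block Tyrobp passed in the Egr2KO comparison of CD229+ cells (adjusted p = 0.0476). Apart from the Tyrobp and Syk calls given in the report, pairing changed no other call among the members tested in the 2 paired steps. Trem1, called in both steps without pairing, was not tested with it. With the tag PE150 as a covariate 0 and 4 members passed in the 6-week Cre diet and CD11c steps. In tagged libraries only, 1, 0 and 1 passed in the Cre CD11c and Egr2KO CD11c steps and the Egr2KO comparison of CD229+ cells, and in untagged libraries, 1 per group, 0 or 1 passed in 6 comparisons. Leaving out 1 library gave 3 to 6 members in the WT diet step, 1 to 4 in the WT CD11c step, 1 to 3 in the Trem2KO diet step, 0 to 4 in the Mef2aKO CD11c step, 1 to 4 in the 6-week Cre CD11c step, 1 to 3 and 2 to 4 in the 6-week CD229 steps of Cre and Egr2KO mice, 5 to 6 and 5 to 7 in the Clec7a steps of Cre and Mef2aKO mice, 6 to 7 and 4 to 5 in the CD229 steps of WT and Trem2KO mice, 2 to 3 and 7 to 8 in the Trem2KO comparisons of CD229- and CD229+ cells, and 0 to 2 elsewhere where a count moved. Depth limits Trem1 to differences of many reads, and groups of 2 or 3 pools limit the precision of all the others.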
